A study of Mus musculus with 125 samples.

Results

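Parthenotes are embryos that develop from an egg alone, with no contribution from sperm. RNA was sequenced from single mouse embryos at the 2-cell stage, and the comparison set all 31 parthenotes of the inbred strain C57BL/6 against all 43 hybrid embryos of C57BL/6 x JF1/Ms that grew from zygotes with 2 pronuclei (2PN). Members were chosen by their labels alone and make up 74 of the 125 libraries of the series. For comparison, values are also given for 8 embryos of C57BL/6 x JF1/Ms and 4 of JF1/Ms x C57BL/6 that had 1 pronucleus (1PN) under the microscope and that the submitters called parthenogenetic in silico, and for 21 2PN embryos of JF1/Ms x C57BL/6. JF1/Ms is an inbred strain derived from Japanese mice. The labels give 1 protocol for all embryos: zygotes were picked at 10 h, their second polar body was taken off with a micromanipulator, and embryos were lysed at 34 h. Whether the polar body was taken off in the parthenotes too is not said apart from this shared text. The labels do not say how the parthenotes were activated, what their ploidy was, which strain bore the eggs of a cross or which embryos came from the same parents, so a p-value speaks only of the variation among these embryos.

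In mammals, genomic imprints laid down in egg and sperm leave some genes active from only 1 parental copy, and an embryo with maternal chromosomes alone lacks transcripts made solely from the paternal copy. The mouse 2-cell embryo is the stage of the main wave of zygotic genome activation, when RNA stored in the egg is degraded and the embryo's own genes are switched on, genes for making ribosomes among the most active. Parthenotes of the mouse cleave and can form blastocysts but die after implantation. The parthenotes differ from the 2PN hybrids in at least 3 ways at once, among them no paternal genome, no JF1/Ms alleles and no fertilization by sperm. These cannot be told apart within this comparison.

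Depth was 1848086 to 4304276 gene counts in parthenotes and 1692742 to 4889338 in 2PN embryos, and after thinning to 1692742 counts a median of 19475 and 18316 genes had a count. The mean difference of 1117 genes after thinning passed the permutation test (2-sided, 100000 resamples, adjusted p = 4.5e-05 over 9 library measures). Mitochondrially encoded genes took 8.31% ± 2.38 (SD, n = 31) of the counts in parthenotes and 6.25% ± 1.37 (SD, n = 43) in 2PN embryos (adjusted p = 4.5e-05). On the first principal component, with 26.3% of the variance, 30 of 31 parthenotes lay beyond every 2PN embryo. A pair of libraries stood apart from their groups. Parthenote 11 had the lowest depth of its group and the highest spread, 0.215 as 1 minus Spearman's rho against the mean of the other parthenotes, with a group median of 0.0988. The 2PN embryo numbered 30 was the shallowest of all 74, with 13987 genes with a count and a spread of 0.205. Where embryo 30 sets the lowest 2PN value of a gene below, the count of parthenotes beneath the others is given too.

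Y-linked genes and stage markers were compared with the labels first. A sum of 50 or more counts over Y-linked genes was reached by 0 of 31 parthenotes and by 23 of 43 2PN embryos (Fisher's exact test, 2-sided, p = 1.21e-07), and a sum of 10 or more by 7 of 31 parthenotes and 24 of 43 2PN embryos (p = 0.00483), and the highest sum was 23 counts in a parthenote, against 1260 in a 2PN embryo. All 8 tested Y-linked genes were called lower in parthenotes. A pair of 2-cell transcripts, Zfp352 and Tcstv1, was present in every embryo of both groups. Zfp352 had a lowest, median and highest level of 341, 741 and 2055 CPM, the counts of a gene per 1000000 gene counts of its library, in parthenotes and 99.8, 534 and 2038 CPM in 2PN embryos, and Tcstv1 had 61.7, 179 and 624 CPM in parthenotes and 42.1, 158 and 505 CPM in 2PN embryos. Neither gene was called. Egg transcripts were present as well, with the growth factor Gdf9 at 56, 108 and 261 CPM in parthenotes and 37.8, 102 and 342 CPM in 2PN embryos, not called either. Markers of other cells were present too. The summed level of 14 markers of cumulus and granulosa, the cells that surround the egg, was 8.49, 35.7 and 96.9 CPM in parthenotes and 0.281, 9.3 and 37.7 CPM in 2PN embryos (permutation test, adjusted p = 4.5e-05). Of its members 8 passed the filter on low counts, and 4 were called higher and 0 lower. Tnfaip6 held 2703 counts in parthenotes and 858 in 2PN embryos, more than each of the other tested members in either group. Markers of sperm and testis split 2 higher to 2 lower of 10, and those of blood and other cells 4 to 0 of 8. Their summed medians were 121 and 478 CPM in parthenotes and 106 and 405 CPM in 2PN embryos (permutation test, adjusted p = 0.144 and 0.133). Whether marker transcripts came from other cells or from the embryos, and the part of such cells in any result, was not tested.

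Parthenotes differed from 2PN embryos at 11035 of 24448 genes tested, of which 6299 were higher and 4736 lower (edgeR quasi-likelihood test, Benjamini-Hochberg adjusted p under 0.05). These are 45.1% of all genes tested, 25.8% higher and 19.4% lower, and each list below is to be read against those shares. The shares changed with the mean level in 2PN embryos. Over 100 CPM (2252 genes) 10.3% were higher and 55.1% lower, with a median log2 fold change of -0.48. At 10 to 100 CPM (6548 genes) it was 22.4% and 28.1%, and at 1 to 10 CPM (8585 genes) 23.1% and 14.1%. Under 1 CPM (7063 genes) it was 37.1% and 6.34%, with a median of 0.90. The lists were not matched for level. The split depended on the scaling: 57.1% of calls were higher with TMM factors, 67.4% with RLE factors and 69.8% with total counts alone, which moved the log2 fold change of the median gene up by 0.18 and 0.21. The median of all genes was 0.21 with TMM factors. In bulk RNA of whole embryos, relative levels cannot show whether a difference lies in synthesis, in decay or in the total RNA of an embryo.

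**Figure D1:**
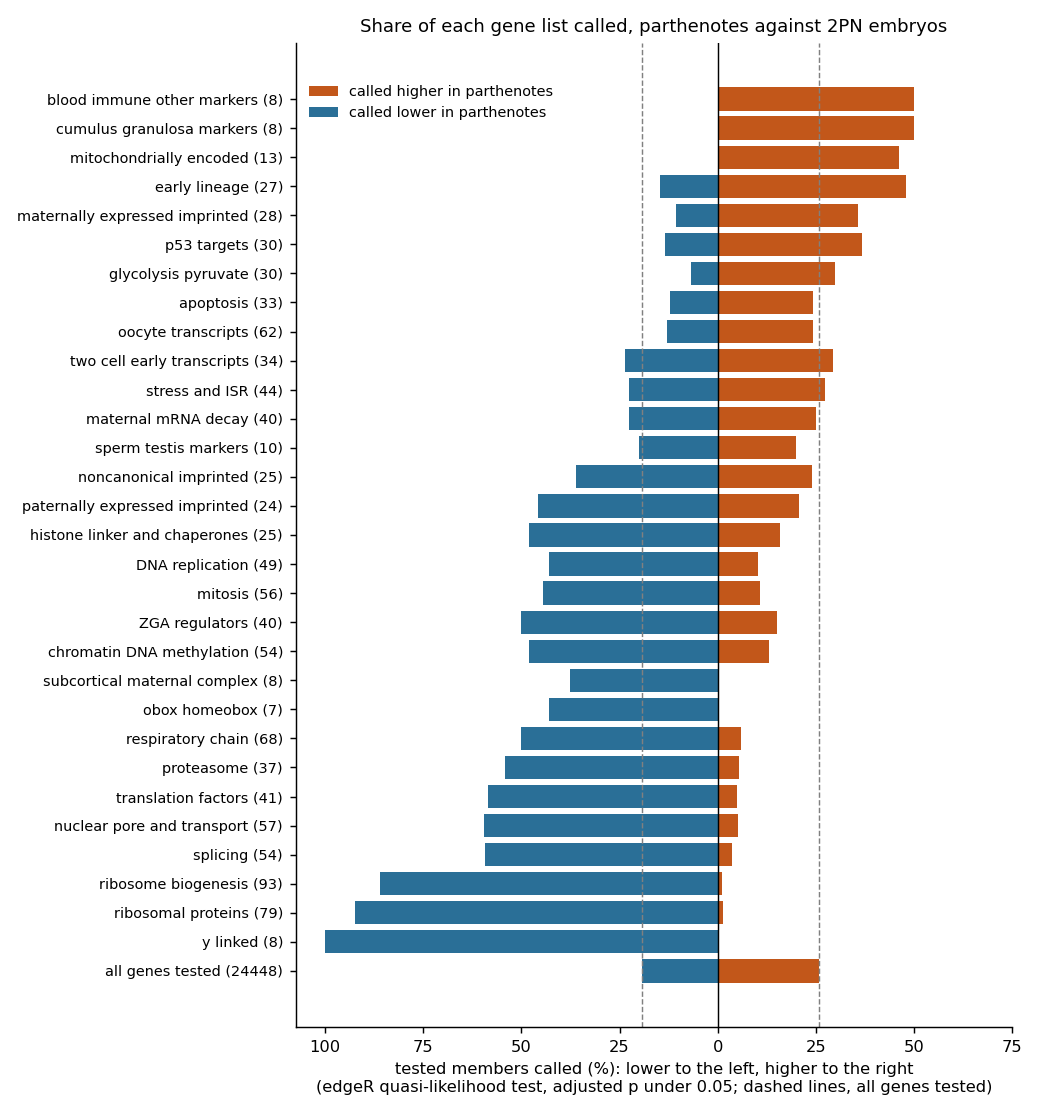
Share of the tested members of 30 gene lists called lower (bars to the left, %) or higher (bars to the right, %) in 31 parthenotes against 43 2PN embryos, with the number tested in brackets. Dashed lines mark all 24448 genes, and ribosome biogenesis and ribosomal proteins reach 86% and 92.4% lower.

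Paternally expressed imprinted genes were lower as a group in parthenotes. Of 24 tested members of 31, 11 were called lower and 5 higher, with a median log2 fold change of -0.56. Mcts2, a retrogene within an intron of H13 that is transcribed from the unmethylated paternal copy, had a lowest, median and highest level of 0, 4.78 and 33.9 CPM in parthenotes and 0, 65 and 179 CPM in 2PN embryos. The log2 fold change was -3.44 ± 0.30 (SE; edgeR, adjusted p = 2.61e-18). Groups overlapped, and the only 2PN embryo at 0 was number 30; the next lowest had 11.4 CPM, above 25 of 31 parthenotes. Its X-linked source gene, Mcts1, which is not imprinted, was not called, with medians of 48 CPM in parthenotes and 27.7 CPM in 2PN embryos and a log2 fold change of 0.33 ± 0.31 (adjusted p = 0.401).

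Zrsr1, a second retrogene of this kind in an intron of Commd1, gave 0, 1.11 and 23.1 CPM in parthenotes and 0, 26.5 and 105 CPM in 2PN embryos, a log2 fold change of -3.77 ± 0.38 (edgeR adjusted p = 2.09e-15). Embryo 30 was again the only 2PN embryo at 0, and 28 of 31 parthenotes lay under all of the others. Zrsr2, the X-linked splicing factor it was copied from, went the other way, with 19.8, 79.1 and 156 CPM in parthenotes and 0, 21.2 and 64 CPM in 2PN embryos (1.63 ± 0.26, adjusted p = 8.08e-08), and 21 of 31 parthenotes exceeded every 2PN embryo. Of the X chromosome's 867 tested genes 36.7% were called higher and 14.9% lower, with a median log2 fold change of 0.48, while the medians of the autosomes ran from -0.02 to 0.34. Parthenotes have maternal X chromosomes only, while the sexes of the 2PN embryos are mixed and not in the labels. The part of sex in the X-linked values was not tested.

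Snrpn encodes a spliceosomal Sm protein of the brain and lies in the imprinted domain that is lost in Prader-Willi syndrome in humans. Its levels were 2.37, 12.4 and 64.9 CPM in parthenotes and 2.36, 75.3 and 149.6 CPM in 2PN embryos, a log2 fold change of -2.56 ± 0.20 (edgeR adjusted p = 2.36e-22). Embryo 30 held the lowest 2PN value, and without it 29 of 31 parthenotes lay below every 2PN embryo. The upstream reading frame Snurf shares its transcript, so its log2 fold change of -2.51 ± 0.22 is no separate measurement. Snhg14, the long non-coding RNA of the same domain, fell as well (-2.38 ± 0.36, adjusted p = 2.71e-08).

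Plagl1, a zinc-finger transcription factor of a network of imprinted growth genes, had medians of 1.88 CPM in parthenotes and 6.75 CPM in 2PN embryos (-1.51 ± 0.46, adjusted p = 0.00454), and Impact, a regulator of translation under stress, had medians of 2.49 CPM in parthenotes and 14.3 CPM in 2PN embryos (-1.96 ± 0.46, adjusted p = 0.000187). Usp29, from the Peg3 domain, had medians of 22.3 CPM in parthenotes and 45.5 CPM in 2PN embryos (-1.22 ± 0.26, adjusted p = 5.29e-05). Mest and Inpp5f were not called, at -0.33 ± 0.28 and 0.29 ± 0.26 on the log2 scale. The 5 members called higher, named after their values were seen, were Igf2 (3.63), Dlk1 (2.79), Ins2 (2.23), Dio3 (1.67) and Rasgrf1 (1.54), and only Dio3 reached a mean of 10 CPM in a group. The median of Dio3 was 20.2 CPM in parthenotes and 0.225 CPM in 2PN embryos, and it was not called with depth as a covariate. Rasgrf1 was not called without parthenote 11 (1.52, adjusted p = 0.0503) or without 2PN embryo 30 (1.51, adjusted p = 0.0508). Igf2, Dlk1 and Rasgrf1 are among the genes whose imprint is laid down in sperm, which does not set them apart from Ins2 and Dio3. The part of such imprints in these levels was not tested.

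**Figure D2:**
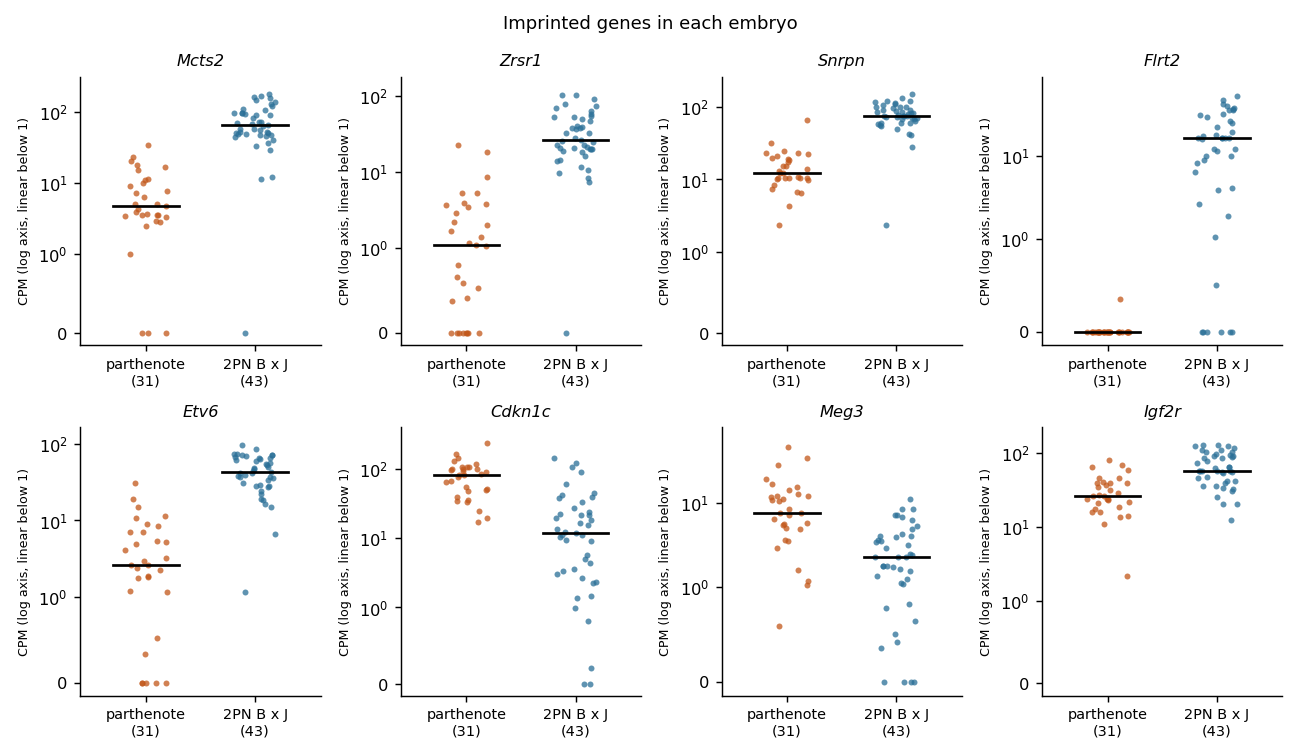
CPM of 8 imprinted genes in each of 31 parthenotes (left) and 43 2PN embryos (right), on a log axis that is linear below 1 CPM; points are embryos and black lines are medians. Mcts2, Zrsr1, Snrpn, Flrt2, Etv6 and Igf2r lie lower and Cdkn1c and Meg3 higher in parthenotes, with overlap in each panel.

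The starts of 3 of these genes are shown because DNA methylation on the egg's copy at the CpG-rich starts of such genes is what separates the parental alleles, and the KRAB zinc-finger protein ZFP57 keeps it there by binding TGCCGC when methylated. Sequences are RefSeq promoter windows of GRCm38.p6, from 250 bases before to 30 bases after the annotated start, 5′ to 3′ on the gene's strand, with each TGCCGC or its reverse complement in capitals.
Mcts2, chr2:152686898-152687177, plus strand: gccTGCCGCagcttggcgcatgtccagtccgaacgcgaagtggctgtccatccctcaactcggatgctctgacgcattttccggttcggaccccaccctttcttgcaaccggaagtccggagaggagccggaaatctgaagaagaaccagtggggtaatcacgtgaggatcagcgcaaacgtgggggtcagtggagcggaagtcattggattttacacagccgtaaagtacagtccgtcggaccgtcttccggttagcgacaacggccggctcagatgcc
Snrpn, chr7:60005170-60005449, minus strand: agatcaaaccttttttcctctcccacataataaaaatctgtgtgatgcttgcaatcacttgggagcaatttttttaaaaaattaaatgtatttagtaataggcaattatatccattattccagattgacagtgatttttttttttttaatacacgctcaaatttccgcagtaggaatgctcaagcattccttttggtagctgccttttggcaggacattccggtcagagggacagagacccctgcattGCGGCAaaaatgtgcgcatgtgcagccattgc
Plagl1, chr10:13090582-13090861, plus strand: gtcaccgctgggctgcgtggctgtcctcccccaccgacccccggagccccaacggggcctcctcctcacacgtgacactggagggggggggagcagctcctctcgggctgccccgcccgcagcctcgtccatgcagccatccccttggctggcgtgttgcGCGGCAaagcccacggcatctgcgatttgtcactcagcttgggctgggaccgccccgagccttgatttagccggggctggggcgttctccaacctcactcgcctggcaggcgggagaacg
In windows of 300 bases, which run to 50 bases after the start, the motif was present on either strand for 5 of the 10 lower members that had an entry, Snrpn and Snurf counting the same window, and for 13.1% of all 27025 genes with an entry and 24.2% of the 66 lower ribosome biogenesis genes with one. Over the printed bases Mcts2 has 24 CG dinucleotides, Plagl1 22 and Snrpn 5. A match of letters is a description and not a bound site.

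Maternally expressed imprinted genes were called higher more often than lower, at 10 (35.7%) and 3 (10.7%) of 28 tested members of 31 (median log2 fold change 0.69). For all genes tested it was 25.8% and 19.4% (median 0.21). Of all genes with a 2PN mean under 1 CPM, 37.1% were higher and 6.34% lower (median 0.90), and at 1 to 10 CPM 23.1% and 14.1%. The list was not matched for level. Cdkn1c, an inhibitor of cyclin-dependent kinases that restrains growth, had 17.4, 84 and 237 CPM in parthenotes and 0, 11.9 and 145 CPM in 2PN embryos (1.60 ± 0.37, edgeR adjusted p = 0.000156). The non-coding RNA Meg3 had 0.593, 7.63 and 45.2 CPM in parthenotes and 0, 2.26 and 11 CPM in 2PN embryos (1.59 ± 0.37, adjusted p = 0.000207). The groups overlapped in both, and 2 parthenotes for Cdkn1c and 12 for Meg3 exceeded every 2PN embryo.

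Grb10, an adaptor that dampens insulin signalling, had medians of 38.5 CPM in parthenotes and 18.8 CPM in 2PN embryos (0.84 ± 0.25, adjusted p = 0.00334), and Asb4, a part of ubiquitin ligases, had medians of 21.5 CPM in parthenotes and 7.54 CPM in 2PN embryos (1.65 ± 0.36, adjusted p = 8.22e-05). The 3 members called lower were Igf2r (-1.31 ± 0.26), the receptor that clears IGF2, Tssc4 (-0.77 ± 0.26) and Ppp1r9a (-0.79). Neither Tssc4 nor Ppp1r9a was called when counts were scaled by library totals alone, and Tssc4 was not against the 2PN embryos numbered 1 to 29. Phlda2, a brake on placental growth, was not called (-0.29 ± 0.32, adjusted p = 0.485).

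Non-canonical imprints rest on the histone mark H3K27me3 that the egg leaves on its copy, and they silence the maternal allele in the early embryo. Of 25 tested members of 27, 9 were called lower and 6 higher (median -0.34). Flrt2, an adhesion molecule, had 1 count in all 31 parthenotes together and 2778 counts in 2PN embryos, where 37 of 43 held at least 1. Pooled as CPM, the 2PN level over the parthenote level was 1653 (exact 95% counting interval 297 to 65330.0). Etv6, a transcription factor, had 0, 2.68 and 30.6 CPM in parthenotes and 1.18, 43.1 and 95.1 CPM in 2PN embryos (-3.30 ± 0.38, adjusted p = 7.47e-13), and without embryo 30 22 of 31 parthenotes lay under all 2PN embryos.

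Slc38a4, an amino acid transporter on both the paternal and the non-canonical list, was low throughout, with medians of 0 CPM in parthenotes and 1.13 CPM in 2PN embryos (-4.01 ± 0.73, adjusted p = 2e-06), and the transcription factor Bbx was lower too (-1.43 ± 0.37, adjusted p = 0.00077). Members called higher included Sall3 and Jade1, at 3.31 ± 0.61 (adjusted p = 3.45e-06) and 1.13 ± 0.44 (adjusted p = 0.0269), though Jade1 was not called without parthenote 11 (0.98, adjusted p = 0.0624). Xist, the RNA that coats an inactive X chromosome, was higher as well, with 0, 5.06 and 30.9 CPM in parthenotes and 0, 0.281 and 10.3 CPM in 2PN embryos (2.04 ± 0.52, adjusted p = 0.000685). Both groups held embryos with none, and 8 of 31 parthenotes exceeded every 2PN embryo. The sources used here do not give the use of strand in the counting, so reads of Xist cannot be told apart from those of its antisense partner Tsix.

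Genes for building ribosomes were lower in most cases. Ribosome biogenesis factors, which transcribe, cut, modify and fold ribosomal RNA in the nucleolus, were called lower at 80 of 93 members and higher at 1, Riok1 (0.41), with a median log2 fold change of -0.90. With total counts alone 67 of these factors were lower and 2 higher (median -0.68). Their mean log2(CPM + 1) was lowest, median and highest at 5.29, 6.49 and 7.10 in parthenotes and 6.25, 7.31 and 7.64 in 2PN embryos. All 31 parthenotes lay below the 2PN median and 6 below every 2PN embryo, parthenote 11 lowest, with 5.95 the lowest of the other 30. Ribosomal proteins gave 73 lower and 1 higher, Rpl22 (0.45, not called without parthenote 11, at 0.43 with adjusted p = 0.0506), of 79 (median -0.88). With total counts alone 67 ribosomal proteins were lower and 1 higher (median -0.68). Many ribosomal protein genes have near-identical pseudogenes, and the sources used here do not say how reads shared between copies were counted.

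Rpf2, which carries 5S ribosomal RNA into the large subunit, had 24.4, 66.6 and 197 CPM in parthenotes and 90.9, 406 and 695 CPM in 2PN embryos, a log2 fold change of -2.55 ± 0.27 (edgeR adjusted p = 2.58e-14). Tsr1, a late assembly factor of the small subunit, had 5.56, 21.6 and 49.3 CPM in parthenotes and 8.58, 119.6 and 211 CPM in 2PN embryos (-2.51 ± 0.19, adjusted p = 2.15e-22). Wdr43, part of the complex that starts work on the precursor of small-subunit RNA, had 103, 332 and 500.2 CPM in parthenotes and 359, 781 and 1104 CPM in 2PN embryos (-1.45 ± 0.14, adjusted p = 1.05e-15). Below every 2PN embryo lay 23 parthenotes for Rpf2, 1 for Tsr1 and 17 for Wdr43. For Tbl3, of the same complex, it was 26 of 31, with medians of 33.7 CPM in parthenotes and 104 CPM in 2PN embryos. Rpl19, a protein of the large subunit, had medians of 117 CPM in parthenotes and 349.7 CPM in 2PN embryos (-1.75 ± 0.20), and 29 of 31 parthenotes lay below every 2PN embryo.

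The starts of 3 of these genes are shown because they moved together and each holds CACGTG, the E-box that MYC proteins bind at many ribosome biogenesis genes. The windows are those of the RefSeq table of GRCm38.p6, cut as above, with CACGTG, which reads the same on both strands, in capitals.
Tsr1, chr11:74897830-74898109, plus strand: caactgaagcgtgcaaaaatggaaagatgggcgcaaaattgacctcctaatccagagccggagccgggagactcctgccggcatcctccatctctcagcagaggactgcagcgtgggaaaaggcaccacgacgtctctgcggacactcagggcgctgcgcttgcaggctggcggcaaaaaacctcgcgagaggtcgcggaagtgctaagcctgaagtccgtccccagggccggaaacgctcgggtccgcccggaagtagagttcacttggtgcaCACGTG
Wdr43, chr17:71615965-71616244, plus strand: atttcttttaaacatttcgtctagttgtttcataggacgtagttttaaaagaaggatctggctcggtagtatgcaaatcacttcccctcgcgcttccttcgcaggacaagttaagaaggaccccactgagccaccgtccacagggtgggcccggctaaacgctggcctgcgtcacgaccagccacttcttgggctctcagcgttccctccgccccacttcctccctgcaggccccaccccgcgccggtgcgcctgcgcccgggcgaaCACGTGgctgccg
Rpf2, chr10:40246950-40247229, minus strand: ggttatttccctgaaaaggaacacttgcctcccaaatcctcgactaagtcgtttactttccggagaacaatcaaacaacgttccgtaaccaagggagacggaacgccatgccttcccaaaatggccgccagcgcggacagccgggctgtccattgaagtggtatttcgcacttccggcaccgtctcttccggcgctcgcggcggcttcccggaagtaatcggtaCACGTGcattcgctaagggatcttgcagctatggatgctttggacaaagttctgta
Of the 80 lower members 66 had an entry. Of these 66, 16 (24.2%) held CACGTG within a 300-base window, against 8.09% of all 27025 genes. TGCCGC was held by 16 of these 66 as well. CACGTG was also held by 2 of the 10 lower paternally expressed imprinted genes that had an entry. Here too a match of letters is not a bound site. The part of MYC proteins in the lower levels of these genes was not tested. Mycn, which encodes a MYC protein, was itself higher in parthenotes, with 0.534, 56.6 and 142 CPM in parthenotes and 0, 0.211 and 38.8 CPM in 2PN embryos (4.20 ± 0.56, adjusted p = 4.12e-10), and 19 of 31 parthenotes exceeded every 2PN embryo.

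**Figure D3:**
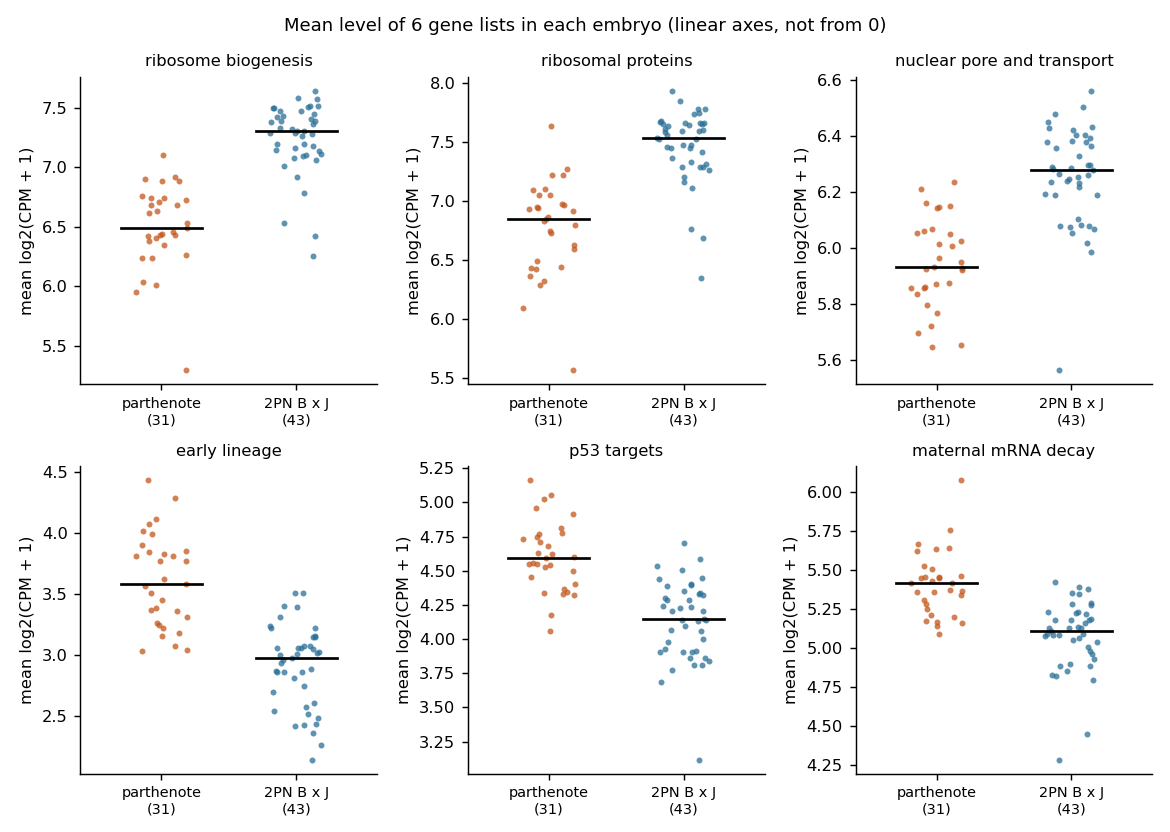
Mean log2(CPM + 1), without TMM factors, over the tested members of 6 gene lists in each of 31 parthenotes (left) and 43 2PN embryos (right). Points are embryos, black lines are medians and the axes do not start at 0. All 31 parthenotes lie below the 2PN median for ribosome biogenesis and for nuclear pore and transport, and all 31 above it for early lineage genes.

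Other parts of the machinery for gene expression were lower in parthenotes too. Translation factors were lower at 24 and higher at 2 of 41 members (median -0.65), splicing factors at 32 and 2 of 54 (-0.56), proteasome subunits at 20 and 2 of 37 (-0.54), and genes of the nuclear pore and transport at 34 and 3 of 57 (-0.57). Their lower shares of 54.1% to 59.6% were near the 55.1% of all genes with a 2PN mean over 100 CPM. With total counts alone the lower calls were 23 translation factors, 23 splicing factors, 16 proteasome genes and 25 genes of the nuclear pore and transport. The higher calls were then 2, 2, 4 and 6. Eif4e, which binds the cap of messenger RNA, had 531, 1094 and 1644 CPM in parthenotes and 1043, 2246 and 5110.0 CPM in 2PN embryos (-1.28 ± 0.15, edgeR adjusted p = 5.32e-12), and 14 of 31 parthenotes lay below every 2PN embryo, or 20 without embryo 30. Its scaffold Eif4g1 had medians of 49.3 CPM in parthenotes and 136 CPM in 2PN embryos (-1.66 ± 0.13), with 16 of 31 parthenotes below every 2PN embryo.

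Ran, the GTPase that gives nuclear transport its direction, had 161, 342 and 638 CPM in parthenotes and 369, 679 and 912 CPM in 2PN embryos (-1.07 ± 0.14, adjusted p = 1.66e-10), and 18 of 31 parthenotes lay below every 2PN embryo. The pore subunit Nup107 had medians of 66.9 CPM in parthenotes and 179.8 CPM in 2PN embryos (-1.46 ± 0.21). Of the splicing list, Hnrnpc (-0.91 ± 0.12) and Sf3b1 (-0.81 ± 0.12) were lower, and of the proteasome list Psmd4 (-1.48 ± 0.17) and Psmd7 (-1.16 ± 0.20). Nuclear-encoded respiratory chain genes were lower at 34 and higher at 4 of 68, among them the cytochrome c oxidase subunit Cox5a (-1.13 ± 0.15). In contrast, mitochondrially encoded genes were higher at 6 of 13 and lower at 0, and with RLE factors higher at 10. The ATP synthase subunit gene mt-Atp6 had medians of 236 CPM in parthenotes and 106 CPM in 2PN embryos (0.75 ± 0.16).

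Genes of the cell cycle were lower more often than higher. DNA replication genes were called lower at 21 and higher at 5 of 49, and mitosis genes at 25 and 6 of 56. With RLE factors 16 replication genes were lower and 11 higher, and 20 mitosis genes were lower and 13 higher. Rpa2, which coats single-stranded DNA, had 10.8, 83.2 and 274 CPM in parthenotes and 75.7, 340.0 and 744 CPM in 2PN embryos (-2.03 ± 0.31, adjusted p = 1.84e-08), with 12 of 31 parthenotes below every 2PN embryo. Cdc6, a licensing factor of replication origins, had medians of 31.9 CPM in parthenotes and 79.7 CPM in 2PN embryos (-1.54 ± 0.23), and 22 parthenotes lay below every 2PN embryo. The spindle kinase Aurka and its activator Tpx2 had medians of 182 and 237 CPM in parthenotes and 465 and 565 CPM in 2PN embryos (-1.57 ± 0.17 and -1.43 ± 0.16). Cyclin B1, Ccnb1, which the egg stores, had 530.3, 1747 and 2111 CPM in parthenotes and 1388, 2570.6 and 3590.0 CPM in 2PN embryos (-0.83 ± 0.14), and the groups overlapped except at 8 parthenotes.

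Of 54 genes of chromatin and DNA methylation 26 were lower and 7 higher. The DNA methyltransferases Dnmt3a and Dnmt1 had medians of 30.1 and 21.4 CPM in parthenotes and 65.4 and 41.3 CPM in 2PN embryos (-1.23 ± 0.15 and -0.99 ± 0.18). Setd2, which writes H3K36 trimethylation, had 164, 276 and 479 CPM in parthenotes and 294, 608 and 1099 CPM in 2PN embryos (-1.25 ± 0.12, adjusted p = 2.87e-16), with 18 of 31 parthenotes below every 2PN embryo, or 19 without embryo 30. Of 25 linker histones and histone chaperones 12 were lower and 4 higher. Chaf1a, which deposits histone H3 behind the replication fork, was lower (-1.47 ± 0.16), and Asf1a, which hands it histones, was higher, with 127, 220.0 and 385 CPM in parthenotes and 16.4, 53.4 and 164 CPM in 2PN embryos (1.78 ± 0.17, adjusted p = 4.02e-17). For Asf1a 25 of 31 parthenotes exceeded every 2PN embryo.

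The early 2-cell programme was not lower as a whole. Of 34 tested early 2-cell transcripts 10 (29.4%) were higher and 8 (23.5%) lower (median 0.22). This was near the 25.8% and 19.4% of all genes tested (median 0.21). Zscan4 genes, a cluster that is switched on for a short time in the 2-cell embryo, were among the higher ones: Zscan4a had 68.1, 246 and 648 CPM in parthenotes and 14.9, 51.6 and 508 CPM in 2PN embryos (1.64 ± 0.33, adjusted p = 1.51e-05), and Zscan4c had 36.5, 147 and 420.5 CPM in parthenotes and 1.29, 14.8 and 593 CPM in 2PN embryos (1.89 ± 0.43, adjusted p = 0.000126). The groups overlapped in both genes, with 2 parthenotes above every 2PN embryo for Zscan4a and 0 for Zscan4c. As Zscan4 copies are near-identical, the split of reads among them is uncertain. Obox3, Obox6 and Obox8, homeobox factors of genome activation in mouse, were lower: Obox6 had 23.8, 507 and 802 CPM in parthenotes and 474, 1130.5 and 2176 CPM in 2PN embryos (-1.45 ± 0.23, adjusted p = 6.02e-08), and 13 of 31 parthenotes lay below every 2PN embryo. Obox5, which the egg stores, was not called (0.37 ± 0.21, adjusted p = 0.131), but was called higher under 8 of the alternatives tried.

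Among 40 regulators of genome activation 20 were lower and 6 higher (median -0.39). Ctcf, the insulator protein that shapes chromosome loops, had 70.9, 142 and 299.8 CPM in parthenotes and 128, 249 and 406 CPM in 2PN embryos (-1.10 ± 0.12, adjusted p = 1.85e-14), and the cohesin subunit Rad21 had medians of 140.3 CPM in parthenotes and 238 CPM in 2PN embryos (-0.92 ± 0.12). Nfyc, a subunit of the CCAAT-binding factor NF-Y, had medians of 59.3 CPM in parthenotes and 138 CPM in 2PN embryos (-1.49 ± 0.18). The ranges of all 3 overlapped, with 12, 5 and 2 of 31 parthenotes below every 2PN embryo.

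Transcripts stored in the egg were not called higher more often than genes at large, and their split depended on the scaling. Of 62 oocyte transcripts 15 (24.2%) were called higher and 8 (12.9%) lower (median 0.08). For all genes tested it was 25.8% and 19.4% (median 0.21). With RLE factors or total counts 22 were higher and 5 lower. The list's mean log2(CPM + 1), which unlike the fold changes takes no TMM factors, lay above the 2PN median in 27 of 31 parthenotes. Kit, the receptor of stem cell factor, was higher, with 39.4, 106 and 198 CPM in parthenotes and 7.66, 35 and 104 CPM in 2PN embryos (1.22 ± 0.18, adjusted p = 6.15e-09), and 16 of 31 parthenotes exceeded every 2PN embryo. The zona pellucida gene Zp3 was not called (-0.12 ± 0.19, adjusted p = 0.641). Of 8 genes of the subcortical maternal complex, a protein lattice beneath the egg's membrane, Tle6 (-0.67 ± 0.18), Khdc3 (-0.82 ± 0.30) and Padi6 (-0.35 ± 0.15) were called lower, but Khdc3 and Padi6 were not with RLE factors or library totals.

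In the decay machinery 10 genes were higher and 9 lower of 40, and the median of -0.02 turned to 0.18 with RLE factors and 0.21 with total counts. Zfp36l2, which marks AU-rich messages for deadenylation, had 7.9, 36.6 and 174 CPM in parthenotes and 0, 4.21 and 13.6 CPM in 2PN embryos (2.93 ± 0.34, adjusted p = 1.56e-12). Ythdf3, a reader of m6A-modified RNA, had 102, 261 and 517 CPM in parthenotes and 5.32, 83.9 and 188 CPM in 2PN embryos (1.52 ± 0.17, adjusted p = 5.8e-13). In these 27 and 25 of 31 parthenotes exceeded every 2PN embryo. Cnot1, the scaffold of the deadenylase complex, was lower (-0.99 ± 0.11).

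Genes of the first lineages were higher more often than lower in parthenotes, from low levels. Of 27 tested members of 29, 13 (48.1%) were higher and 4 (14.8%) lower (median 0.85). Of all genes with a 2PN mean under 1 CPM, 37.1% were higher and 6.34% lower (median 0.90). At 1 to 10 CPM it was 23.1% and 14.1% (median 0.24). The list's mean log2(CPM + 1), which takes no TMM factors, was 3.03, 3.58 and 4.43 in parthenotes and 2.14, 2.97 and 3.51 in 2PN embryos. All 31 parthenotes lay above the 2PN median and 17 above every 2PN embryo. Eomes, a T-box factor of the trophoblast, had 0.337, 14.6 and 72.2 CPM in parthenotes and 0, 1.04 and 9.68 CPM in 2PN embryos (3.34 ± 0.50, adjusted p = 1.37e-08). Prdm1, a repressor of the germ line and early lineages, had 0, 11.4 and 141 CPM in parthenotes and 0, 1.38 and 9.54 CPM in 2PN embryos (3.39 ± 0.53, adjusted p = 6.24e-08). Both genes were at or near 0 in some embryos of each group, and 18 parthenotes for Eomes and 21 for Prdm1 exceeded every 2PN embryo. Sox17, a factor of primitive endoderm, was uneven among parthenotes, with 0, 1.65 and 83.1 CPM in parthenotes and 0, 0 and 5.24 CPM in 2PN embryos, and only 13 of 31 parthenotes passed the highest 2PN embryo (5.44 ± 0.71, adjusted p = 2.63e-10). Klf17, which is abundant at the 2-cell stage, was lower (-1.21 ± 0.14).

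p53 targets were called higher at 11 (36.7%) and lower at 4 (13.3%) of 30. Their median of 0.27 was near the 0.21 of all genes tested, of which 25.8% were higher and 19.4% lower. Perp, a membrane protein of p53-dependent cell death, had 0, 17.9 and 95.7 CPM in parthenotes and 0, 0 and 7.45 CPM in 2PN embryos (5.38 ± 0.58, adjusted p = 4.78e-14), and 24 of 31 parthenotes lay above every 2PN embryo. Ccng2, an atypical cyclin, was higher (1.40 ± 0.25), while Tigar, which slows glycolysis, and the pore-forming Bax were lower (-1.26 ± 0.17 and -0.95 ± 0.24). Among 33 apoptosis genes 8 were higher and 4 lower, a higher share near that of all genes and a lower share below it, and with RLE factors 13 were higher. Stress genes split 12 (27.3%) to 10 (22.7%) of 44, shares near those of all genes. The chaperones Hsp90ab1 (-1.24 ± 0.13) and Hspa8 (-1.24 ± 0.18) were lower and the antioxidant regulator Nfe2l2 was higher (1.66 ± 0.24). In glycolysis and pyruvate use 9 were higher and 2 lower of 30: Pdk1, which shuts pyruvate out of the citric acid cycle, had 29.7, 63.2 and 141 CPM in parthenotes and 3.25, 20.5 and 38.9 CPM in 2PN embryos (1.60 ± 0.22, adjusted p = 1.95e-09), and 27 of 31 parthenotes exceeded every 2PN embryo.

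**Figure D4:**
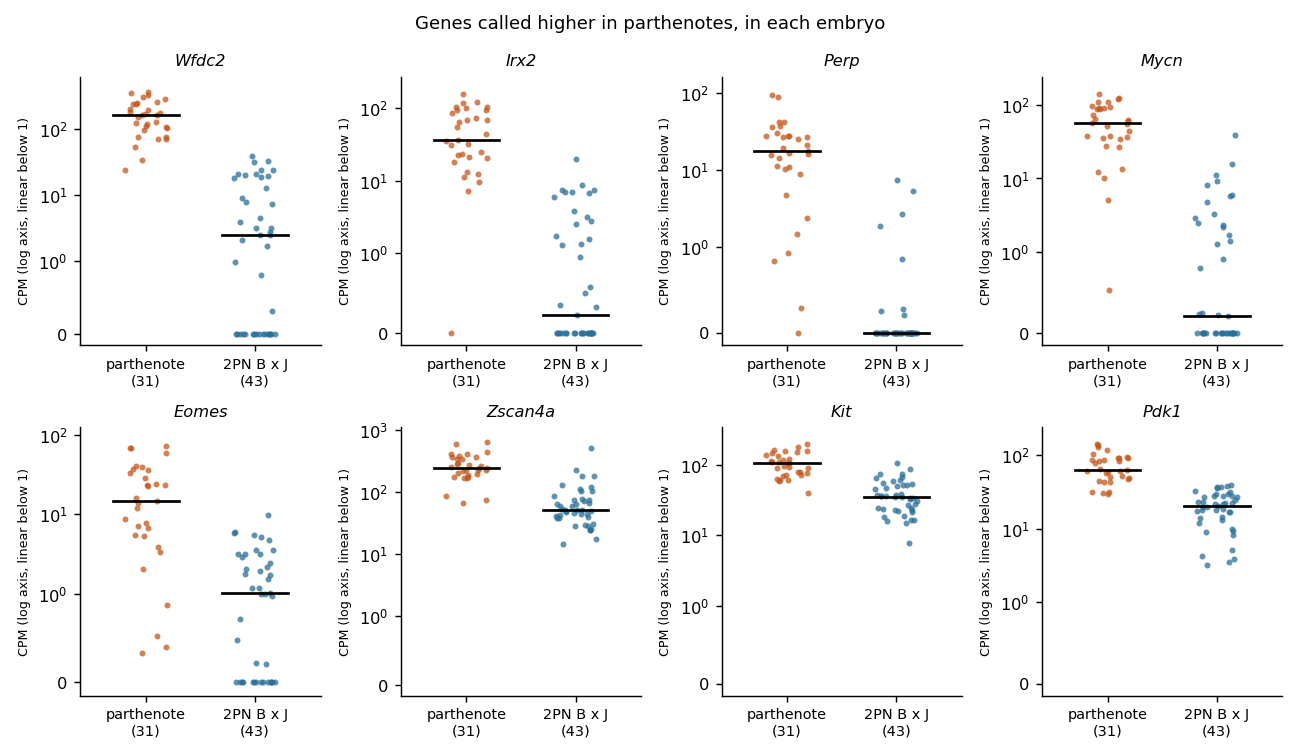
CPM of 8 genes called higher in parthenotes, in each of 31 parthenotes (left) and 43 2PN embryos (right), on a log axis that is linear below 1 CPM; points are embryos and black lines are medians. For Wfdc2 29 of 31 parthenotes lie above every 2PN embryo, and for Zscan4a 2.

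The largest rises were at genes that were nearly silent in 2PN embryos. Of all 7063 tested genes with a 2PN mean under 1 CPM, 37.1% were called higher and 6.34% lower. Wfdc2, a secreted protease inhibitor of epithelia, had 23.8, 160.0 and 356 CPM in parthenotes and 0, 2.46 and 39 CPM in 2PN embryos (4.22 ± 0.47, adjusted p = 3.76e-13). Irx2, an Iroquois homeobox factor, had 0, 36.7 and 158 CPM in parthenotes and 0, 0.225 and 19.6 CPM in 2PN embryos (4.46 ± 0.50, adjusted p = 3.58e-13), and Celf4, an RNA-binding protein of neurons, had 0, 45.3 and 189.9 CPM in parthenotes and 0, 0 and 6.9 CPM in 2PN embryos (5.31 ± 0.49, adjusted p = 2.13e-17). Above every 2PN embryo lay 29 parthenotes for Wfdc2, 24 for Irx2 and 28 for Celf4. Serpinb9b, an intracellular protease inhibitor, had 1135 counts in parthenotes and 1 count in 2PN embryos, and S100a10, the partner of annexin A2, had 0, 9.32 and 142 CPM in parthenotes and 0, 0 and 3.27 CPM in 2PN embryos (5.45 ± 0.57). Plscr1, a phospholipid scramblase induced by interferon, and Zbp1, a sensor of Z-form nucleic acids, were higher too (4.46 ± 0.48 and 4.33 ± 0.54). The summed cumulus and granulosa markers were higher in parthenotes as well, with the values given above, and their part in these rises was not tested.

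At the other end were genes with no or hardly any counts in parthenotes. Slco6d1, a gene of the organic anion transporter family, had 0 counts in 31 parthenotes and 0, 24.3 and 152 CPM in 2PN embryos, which makes it at least 1024-fold lower in parthenotes taking 3 counts in all parthenotes together as the floor. Serpinb3b, an intracellular serpin, had 0, 0 and 0.713 CPM in parthenotes and 0, 31.6 and 160.4 CPM in 2PN embryos (-8.84 ± 0.53, adjusted p = 5.98e-30), and neuropeptide Y, Npy, had 0, 0 and 5.37 CPM in parthenotes and 0.591, 38.6 and 209 CPM in 2PN embryos (-7.43 ± 0.65, adjusted p = 8.09e-19). Txndc8, a thioredoxin-domain protein known from testis, had 4 counts in all parthenotes together and 0, 13.8 and 33 CPM in 2PN embryos. Number 30 was the lowest 2PN embryo for Npy and at 0 for the other 3 genes, and without it 31 of 31 parthenotes lay below every 2PN embryo for Slco6d1, 31 for Serpinb3b, 31 for Npy and 31 for Txndc8. Intervals and floors cover counting error only, as reads not tagged by molecule can be copies of each other.

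These genes were set beside the other groups by a rule made after the values were seen, so it carries no test: a mean under 0.1 CPM in parthenotes, a median over 5 CPM in 2PN embryos, and not on the Y chromosome. It gave 21 genes, Flrt2 and Apobec1 among them. The number of the 21 above 0.5 CPM in an embryo had a lowest, median and highest value of 0, 0 and 3 in parthenotes and of 4, 21 and 21 in 2PN embryos, and the next lowest 2PN embryo after number 30 had 16. Of the C57BL/6 x JF1/Ms cross, the 1PN embryos called parthenogenetic had 0 or 1 of the 21. In JF1/Ms x C57BL/6, in contrast, the 4 embryos called parthenogenetic had 2, 11, 16 and 18, and the 21 2PN embryos had 11 to 18 with a median of 16. Thus 16 of the 21 genes had a mean above 1 CPM in uniparental embryos of the reciprocal cross, and 0 in those of C57BL/6 x JF1/Ms. Serpinb3b had 0, 3.97, 102 and 418 CPM in the 4 embryos called parthenogenetic of JF1/Ms x C57BL/6 and 0, 16.2 and 325 CPM in the 2PN embryos of that cross, and Npy had 0, 1.7, 550.3 and 479 CPM in those 4 embryos and 0, 0 and 144 CPM in the 2PN embryos. The same embryo of the 4 was at 0 for both genes and had 2 of the 21. Flrt2 was low in the uniparental embryos of either cross, at 0.0765 CPM in C57BL/6 x JF1/Ms and 0.498 CPM in JF1/Ms x C57BL/6, against 11.5 CPM in 2PN embryos of JF1/Ms x C57BL/6.

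**Figure D5:**
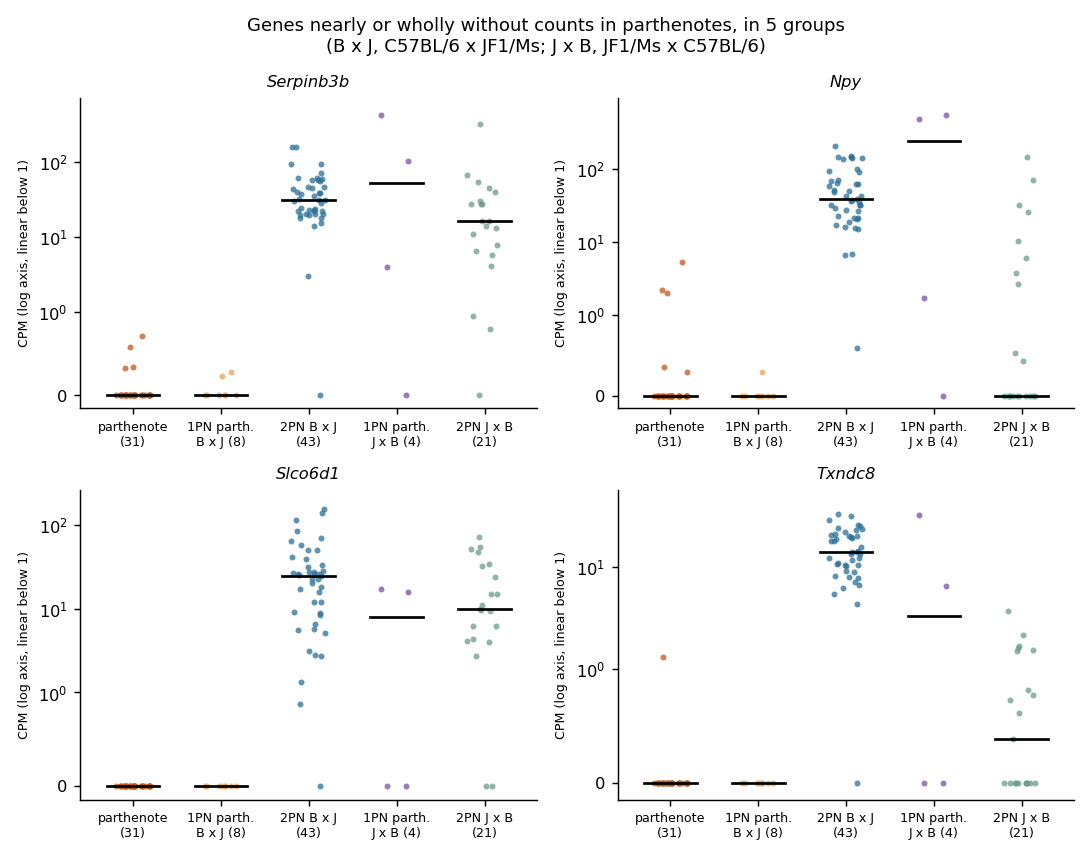
CPM of 4 genes with no or hardly any counts in parthenotes, in each embryo of 5 groups (numbers in brackets), on a log axis that is linear below 1 CPM; points are embryos and black lines are medians. Parthenotes and the parthenogenetic 1PN embryos from C57BL/6 x JF1/Ms lie at or near 0, while 3 of the 4 embryos called parthenogenetic of the reciprocal cross hold Serpinb3b and Npy.

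Few genes separated the groups completely. In 28 of 24448 genes (0.115%) no parthenote overlapped any 2PN embryo, 27 lower (0.11%) and 1 higher (0.00409%), and without parthenote 20 and 2PN embryo 30, whose absence raised the count most, there were 60. The 1 higher gene was Adss, which makes adenylosuccinate on the way to AMP, with 176, 286 and 698 CPM in parthenotes and 4.73, 81.6 and 157 CPM in 2PN embryos (1.71 ± 0.15, adjusted p = 7.78e-19). The lower ones included Sp110, a nuclear body protein, with 206, 469 and 1039 CPM in parthenotes and 1132, 1625 and 3248 CPM in 2PN embryos (-2.02 ± 0.17, adjusted p = 3.15e-19), the H3K9 demethylase gene Kdm4c with 0.541, 83.4 and 147 CPM in parthenotes and 162, 307 and 492.7 CPM in 2PN embryos (-2.09 ± 0.24) and the cell cycle gene Cdk2ap1 with 35.2, 208 and 339 CPM in parthenotes and 356, 631 and 1236 CPM in 2PN embryos (-1.80 ± 0.19). Annotated pseudogenes made up 16 of the 27, though they are 2211 of the genes tested. Dppa3-ps, a copy of the maternal factor Dppa3, had 52.2, 123 and 211 CPM in parthenotes and 425, 862 and 1897 CPM in 2PN embryos. In embryos called parthenogenetic its mean was 195 CPM for C57BL/6 x JF1/Ms and 2244 CPM for JF1/Ms x C57BL/6, whose 2PN embryos had 1404 CPM. Rps13-ps1 had means of 4.17, 6.2 and 29.4 CPM in these 3 groups. The part of strain, or of aligning all strains to 1 build, was not tested. Of all tested pseudogenes 29.3% were called lower and 17.8% higher. Apart from Sp110, these genes were named after their values were seen.

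The parthenotes were also set against uniparental embryos of hybrid origin. Against the 8 1PN embryos that were called parthenogenetic in the C57BL/6 x JF1/Ms cross, 588 genes (2.41%) were called, 158 higher (0.646%) and 430 lower (1.76%), with far fewer embryos than in the comparison with 2PN embryos. Ribosome biogenesis gave 0 higher and 1 lower of 93 there, with a median log2 fold change of 0.04, and Mcts2 and Snrpn were at 0.06 ± 0.46 and -0.97 ± 0.29 (adjusted p = 0.981 and 0.0438). Oocyte transcripts were lower at 10 and higher at 0 of 62 (median -0.63). That list's mean log2(CPM + 1) was 5.63, 6.58 and 7.26 in parthenotes and 6.61, 6.85 and 7.65 in these 1PN embryos, so the ranges overlapped.

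The reciprocal cross shares no embryo with this comparison. There, 1PN embryos called parthenogenetic against 2PN embryos gave 7765 of 24448 genes (31.8%), 2856 higher (11.7%) and 4909 lower (20.1%). Of the 4736 genes lower in parthenotes 2151 (45.4%, and 43.8% of the second list) were lower there too and 218 higher; of the 6299 genes higher in parthenotes 988 (15.7%, and 34.6% of the second list) were higher there and 606 lower. Ribosomal proteins were lower at 74 of 79 members there, with a median of -2.16, and ribosome biogenesis genes at 80 of 93. The 4 embryos called parthenogenetic lay far apart. Their mean log2(CPM + 1) ran from 2.64 to 6.50 for ribosomal proteins, against 4.51 to 8.21 in the 2PN embryos of that cross, and from 0.78 to 6.92 for early 2-cell transcripts, against 4.55 to 7.90. Zscan4a was at 0.265, 1.42, 222 and 460 CPM in the 4 embryos, so 2 of them nearly lacked it, and the part of this in the changes of that cross was not tested. Mcts2 had 0 counts in the 4 embryos called parthenogenetic of that cross and 2.64, 52.3 and 126 CPM in its 2PN embryos, and Zrsr1 was lower by the test as well (-3.99 ± 1.04, adjusted p = 0.00157). Early lineage genes were called higher at 3 and lower at 6 of 27 there. Perp and Ythdf3 were higher in that cross too (3.28 ± 1.10 and 1.73 ± 0.35; adjusted p = 0.0154 and 5.3e-05). Wfdc2 was not called there (-1.61 ± 1.43, adjusted p = 0.391), and the difference between the 2 effects on it passed the test itself, as it did for 6853 genes (28%), 4597 higher (18.8%) and 2256 lower (9.23%) (5.83 ± 1.69, adjusted p = 0.00597).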

How the data were processed

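RNA was measured in single 2-cell embryos. Values are the authors' estimated counts per gene, deposited in 1 table of 43421 genes and 125 libraries. HISAT2 2.0.5, featureCounts 2.0.0 and build GRCm38 are named in the submitters' processing notes. Of the values above 0, 28.4% are not whole, so counts were rounded. The sources used here do not give the use of strand or how reads shared between genes were split. Libraries labelled dead or of low quality, 4 in all, were left out, and 121 entered 1 fit.

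Gene identifiers were matched to symbols for 43266 genes and to RefSeq for 31816. Genes were filtered with filterByExpr by group, scaled with TMM factors and tested with edgeR 4.0.16 (R 4.3.3), the quasi-likelihood F test on group means, with Benjamini-Hochberg adjustment over all 24448 genes and a threshold of 0.05. Standard errors are the log2 fold change over the square root of F. CPM are counts per 1000000 gene counts, without TMM factors. Single measures used 2-sided permutation tests with 100000 resamples, whose smallest p is 2e-05, or Fisher's exact test. Exact binomial intervals are at 95%, and the floor for a count of 0 is 3 counts over the group. The scripts were tested on simulated counts.

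The alternatives were DESeq2 1.42.0, limma 3.58.1 (voom), RLE factors, total counts, other filters, the 74 embryos alone with and without depth or replicate number as a term, thinning, and 2PN embryos 1 to 29. Leaving out parthenote 11 or 2PN embryo 30 and the contrast between the crosses were added after seeing the data. Members and gene lists were chosen with earlier results of these data known. Genes named are, by rule, among the 15 largest changes each way at 10 CPM or more (pseudogenes and numbered gene models left out), the 4 smallest p of each list, the imprinted genes at 10 CPM or more, and Xist, Mcts1, Zrsr2 and Y-linked genes. Outside this rule Zfp352, Tcstv1, Gdf9, Zp3, Zscan4c, Riok1, Rpl22, Ppp1r9a, Igf2, Dlk1, Ins2 and Rasgrf1 were named after their values were seen. So were Adss, Kdm4c, Cdk2ap1, Dppa3-ps and Rps13-ps1, from the genes without overlap. Some genes that the rule takes in are not reported here.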

Additional observations from a re-analysis of the deposited data

Results flagged for a closer look

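In 7 of the genes named above, the change in parthenotes against 2PN embryos differed from the change in the reciprocal cross, JF1/Ms x C57BL/6, where 4 embryos with 1 pronucleus called parthenogenetic were set against 21 2PN embryos. The difference itself was tested as a contrast of the 2 log2 fold changes in the same edgeR fit, with p-values adjusted over all 24448 genes, of which 6853 (28%) passed. Strain, route of activation and library differ between these groups together and cannot be told apart.

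Serpinb3b, Txndc8 and Npy were lower in parthenotes (-8.84, -7.73 and -7.43) and higher in the embryos called parthenogenetic of the reciprocal cross (1.68 ± 0.64, 3.37 ± 0.63 and 4.07 ± 0.81). Their differences were -10.52 ± 0.78 (SE, adjusted p = 2.24e-22), -11.10 ± 0.75 (adjusted p = 2.83e-24) and -11.51 ± 1.02 (adjusted p = 2.55e-17). Wfdc2 was higher in parthenotes (4.22) and not called in the reciprocal cross (-1.61 ± 1.43), a difference of 5.83 ± 1.69 (adjusted p = 0.00597).

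Snrpn was lower in both, at -2.56 in parthenotes and -1.46 ± 0.46 in the reciprocal cross, a difference of -1.10 ± 0.42 (adjusted p = 0.0399). Tsr1 and Obox6 were lower in both as well, at -2.51 and -1.45 in parthenotes and -4.22 ± 0.57 and -3.23 ± 0.65 in the reciprocal cross, and the differences were 1.71 ± 0.52 (adjusted p = 0.00823) and 1.78 ± 0.61 (adjusted p = 0.0212). Genes with 3 or fewer counts in any of the 4 groups, such as Slco6d1, Mcts2, Irx2 and Mycn, are not listed, since their fitted change has no interpretable size.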

How the results depend on the processing

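Against 2PN embryos, 6299 genes were higher and 4736 lower. Higher calls were 3266 when genes under a mean of 10 CPM were left out, where lower calls were 2927; in the 74 embryos alone they were 3560 with depth as a covariate and 3912 after thinning, and fewer genes were tested in each. The replicate numbers do not pair the embryos: over 31 pairs the correlation of deviations was -0.1038 to 0.2057 with a median of 0.0062, 2 pairs exceeded 0.1 and 2 embryos correlated best with their own number. With the replicate block 4040 genes were higher and 3597 lower. DESeq2 gave 6902 higher and 3744 lower, a higher share of calls of 64.8%. Without parthenote 11 there were 5476 and 5034, and without 2PN embryo 30 6119 and 4822.

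The 588 genes called against 1PN embryos called parthenogenetic became 353 at 10 CPM or more, 1702 without a filter and 357 with total counts; the cause was not tested. The 28 genes without overlap became 60 without the most overlapping embryo of each group. With 1 Y-linked count as the limit, all embryos of both groups passed (difference 0, exact p = 1).

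Reversals were all among genes not called. Zp3 turned to 0.0514 under DESeq2 and RLE factors, 0.0964 with total counts and 0.0877 with depth as a covariate, Gdf9 to 0.0415, 0.0417 and 0.0841 under the first 3, Phlda2 to 0.0192 under voom and 0.17 with depth, and Tcstv1 to -0.21 with depth. The difference in genes with a count was not past the threshold against 2PN embryos 1 to 29 (adjusted p = 0.118). Of the other values for single genes 1954 kept their direction and side of the threshold, 36 lost the call and 8 gained it; of the counts per list 702 stayed within 1.5 times and 138 did not.

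The parthenotes are of 1 strain and the 2PN embryos are hybrids, so strain, parental origin and fertilization cannot be told apart. The labels do not tie embryos to parents. Embryos were shallow, with 1692742 to 4889338 counts, so absence of a transcript means fewer counts than the floor. Reads carry no molecular identifiers that the sources used here name, so counting intervals leave out amplification.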
